A study of Mus musculus with 20 samples.

Results

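Embryonic sensory neurons of the mouse were driven for 2 hr or for 5 hr with the same train of short bursts, and the levels of their transcripts at 5 hr were compared with those at 2 hr. The comparison uses 8 of the 20 samples of the series, put in their groups by the labels. They are the 4 samples stimulated for 5 hr with 18 action potentials at intervals of 1 min (the 18/1 pattern), on arrays 5 and 6, and the 4 samples stimulated for 2 hr with that pattern, on arrays 3 and 4. All came from dorsal root ganglia (DRG) of NIH Swiss embryos at embryonic day 13.5. One label text gives spinal cords as the tissue that was dissociated, while the cell type is given as DRG neurons throughout. The neurons grew for weeks in chambers with separate compartments for cell bodies and axons, in medium with horse serum and a growth factor, and with fluorodeoxyuridine to hold back non-neuronal cells. The night before stimulation they were moved to medium without the growth factor and without serum. Pulses of 6 V and 0.2 ms made the neurons fire, and RNA was taken as soon as stimulation ended. The remaining 12 samples were unstimulated neurons and neurons that received 90 action potentials at intervals of 5 min (the 90/5 pattern) for 2 hr or 5 hr. Replicates are described as biological, and the methods describe 5 pooled cultures for each condition without saying how these were divided over samples, so that p-values measure only the spread between these samples.

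DRG neurons carry touch, temperature and pain signals from the body to the spinal cord. When they fire, calcium enters and kinases are activated, and a first wave of genes that need no new protein is transcribed within minutes. Many of these immediate early genes code for transcription factors, such as the Fos, Egr and Nr4a families. A later wave codes for growth factors, synaptic proteins, channels and inhibitors that dampen the signal. A duration of hours therefore probes both waves, and the comparison of 5 hr with 2 hr asks how long stimulation changes the transcripts when the pattern is held constant.

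Every array carried 2 samples of the same condition, read in its Cy3 and its Cy5 channel. For arrays 5 to 8, of 18/1 5 hr and 90/5 2 hr, the labels go against this, since they give the same dye to both samples of an array, so that a channel there shows the condition and not which replicate it holds. Levels are given as the normalised log2 intensity of a probe, a short DNA strand on the array that captures its transcript. A difference of 1 on this scale is a factor of 2. Values of single samples are given in the order Cy3 and Cy5 of each array. A gene was called when its difference passed a linear model fitted in limma across all genes and all 20 samples, with the Benjamini-Hochberg adjusted p under 0.05.

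The arrays of 18/1 2 hr lay on slide 1 and those of 18/1 5 hr on slide 2, so that duration and slide cannot be told apart. The 5 hr arrays also differed in quality from the 2 hr arrays. Their median signal was 5.55 to 10.4 times the background, against 2.27 to 2.94 times at 2 hr. Each 5 hr sample had 5319 to 14642 spots with a non-uniformity mark out of 43020, and each 2 hr sample had 6 to 21. Saturated spots numbered 1299 to 2800 at 5 hr and 0 to 486 at 2 hr. Repeated spots of a probe had a median SD of 0.33 to 0.57 log2 units at 5 hr and of 0.19 to 0.30 at 2 hr. The part of these properties in the differences below was not tested. The only comparison with 18/1 5 hr that stays within slide 2 is against 90/5 2 hr, and it changes pattern and duration together. Its value is given below as the difference within slide 2.

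Of 10355 genes that passed the spot filter in all samples, 4556 differed between 5 hr and 2 hr, of which 1585 were higher and 2971 lower at 5 hr. These are 15.3% and 28.7% of all genes tested, or 44% in either direction. The split depends on the scaling, since 34.8% of the called genes were higher, against 9.20% of 5480 called genes with each sample centred on its median alone and 47.5% of 3787 once a trend on probe GC content was taken out of every sample. The called genes differed by a median of 2.31-fold, with quartiles of 1.91 and 3.01. In 4236 of them the 4 samples of 1 duration all lay above the 4 of the other, and over all genes tested this held for 49.2%. The median log2 difference over all genes was -0.23, and the members of each gene list are read against that value. Within slide 2, 1339 genes were called, 286 of them higher and 1053 lower in 18/1 5 hr than in 90/5 2 hr, which is 2.76% and 10.2% of those tested. Removing array 3 or array 4 left 2619 or 2569 genes called between durations, and the count within slide 2 was 439 without array 5 and 3563 without array 6.

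Both 5 hr arrays moved in the same direction for most genes. Setting array 5 against array 3 and array 6 against array 4 gave log2 differences that had the same sign for 77.9% of the 10355 genes, with a Pearson correlation across genes of 0.77. The genes share both slides and are not independent replicates, so this is a description. Of the 4556 called genes, 4552 had the same sign in both pairs, but they were called from these same samples, which favours equal signs. The spread of the differences was wider for array 5, with an SD of 1.25 against 0.92 for array 6.

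**Figure D1:**
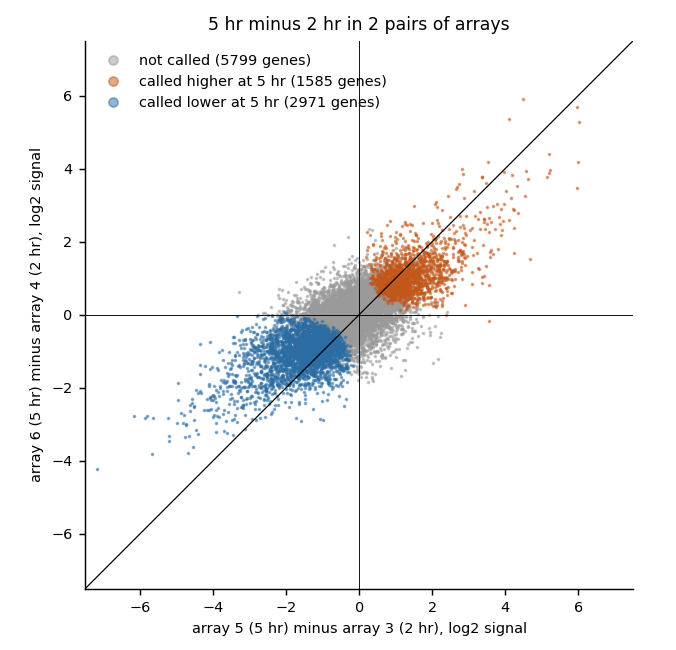
Log2 difference of each of the 10355 genes between array 5 and array 3 (horizontal axis) and between array 6 and array 4 (vertical axis), with genes called higher and lower at 5 hr marked. Points lie along the diagonal, with 77.9% of genes in the quadrants of equal sign, and spread further along the axis of array 5.

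Transcription factors of the first wave did not move together. Of those tested, 1 of 13 rose (7.69%), 3 fell (23.1%) and 9 did not pass the test, with a median log2 difference of -0.35, against 15.3% and 28.7% of all genes and a median of -0.23. Nr4a1, an orphan nuclear receptor and a standard mark of recent firing, read 12.43 and 13.30 on array 3 and 13.21 and 12.51 on array 4 at 2 hr. At 5 hr it read 12.64 and 12.76 on array 5 and 12.75 and 12.90 on array 6. The durations overlapped, the log2 difference was -0.10 ± 0.37 (SE here and below, limma adjusted p = 0.847), and both lay far above the unstimulated mean of 8.32. Egr1, a zinc finger factor, read 10.32 and 11.65 on array 3 and 11.32 and 10.54 on array 4 at 2 hr and 7.95 and 7.91 on array 5 and 10.49 and 10.67 on array 6 at 5 hr. Array 5 lay below every 2 hr sample and array 6 lay among them. Its difference of -1.71 ± 0.59 passed the test (adjusted p = 0.0227) through array 5, since without that array the log2 difference of Egr1 was -0.38 with an adjusted p of 0.534. It also lost its call without array 3 or array 4, with adjusted p of 0.0935 and 0.0817.

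Maff, a small bZIP factor of the Maf family, rose. Its 2 hr samples read 11.76 and 11.54 on array 3 and 11.41 and 11.21 on array 4 and its 5 hr samples 13.09 and 13.05 on array 5 and 12.63 and 12.76 on array 6, with no overlap, and the difference was 1.4 ± 0.30 (2.64-fold, adjusted p = 0.000911). Unstimulated neurons had a mean of 10.67, so the order of the means was unstimulated, 2 hr, 5 hr. Within slide 2 the difference of Maff was 0.49 and did not pass (adjusted p = 0.268). Myc, which drives growth and metabolism, fell by 1.29 ± 0.37 (adjusted p = 0.00734), from a range of 9.75 to 10.53 to one of 8.52 to 9.15. The call of Myc ended without array 4, where its adjusted p was 0.0789. Btg2, an antiproliferative gene induced by depolarisation, had 12.12 and 12.76 on array 3 and 11.91 and 12.19 on array 4 at 2 hr and 11.23 and 10.94 on array 5 and 11.61 and 11.87 on array 6 at 5 hr. All 5 hr samples lay below all 2 hr samples, by -1.16 on array 5 and -0.51 on array 6 against the 2 hr mean, and the fall of 0.83 ± 0.28 passed (adjusted p = 0.0226). The difference of Btg2 within slide 2 was -1.02 (adjusted p = 0.0252). Its call between durations ended without array 3, 4 or 5, with adjusted p of 0.207, 0.0559 and 0.138.

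Several of the best known factors of this wave failed the spot filter in at least 1 sample and were measured in a second fit that asks for the filter within a condition. There 18744 genes were tested and 13.7% were higher and 22.6% lower. A gene can enter this fit through the condition in which it is high, which favours a difference, so its calls are given as values and support nothing about a list. Fos, the partner of Jun in the AP-1 factor, read 10.34 and 10.97 on array 3 and 11.0003 and 10.08 on array 4 at 2 hr and 10.68 and 10.96 on array 5 and 11.52 and 11.79 on array 6 at 5 hr. The ranges overlapped and the difference was 0.64 ± 0.44 (adjusted p = 0.265), with an unstimulated mean of 7.23. Npas4, a bHLH-PAS factor that responds to calcium entry, read 11.42 to 12.77 at 2 hr and 11.94 to 12.47 at 5 hr and differed by 0.17 ± 0.61 (adjusted p = 0.849), with an unstimulated mean of 7.40. Egr4, a relative of Egr1, had 9.14 and 8.61 on array 3 and 9.16 and 8.30 on array 4 at 2 hr and 10.71 and 10.54 on array 5 and 10.25 and 10.29 on array 6 at 5 hr. It rose by 1.65 ± 0.34 (adjusted p = 0.00142) with no overlap, and within slide 2 the difference was 0.20 (adjusted p = 0.751). Junb, another AP-1 component, was well above background in no 5 hr sample, entered through other conditions, and was at least 2-fold lower there (adjusted p = 0.0026). The differences of Fosb (-0.25), Egr2 (-0.26) and Nr4a2 (-0.68) did not pass, and Egr3 and Nr4a3 were below the filter. Bcor, a corepressor that binds Bcl6, rose by 1.41 ± 0.43 (adjusted p = 0.0151).

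Growth factors and other effector genes of firing had shares of calls close to those of all genes (15.3% and 28.7%). Of those tested, 3 of 21 rose (14.3%), 5 fell (23.8%) and 13 did not pass the test, with a median log2 difference of 0.05. Bdnf, a neurotrophin that firing induces in sensory neurons, rose. It read 11.43 and 11.66 on array 3 and 11.41 and 11.26 on array 4 at 2 hr. At 5 hr it read 12.52 and 12.82 on array 5 and 12.92 and 13.30 on array 6. Every 5 hr sample lay above every 2 hr sample on both arrays, the difference was 1.45 ± 0.30 (2.73-fold, adjusted p = 0.000722), and the unstimulated mean was 10.52. Within slide 2 Bdnf was higher in 18/1 5 hr than in 90/5 2 hr by 1.19 (adjusted p = 0.016). The duration difference of Bdnf exceeded that of the 90/5 pattern by 1.20 (adjusted p = 0.0249).

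Inhba, the subunit of activin A, and Trib1, a pseudokinase, fell. The 2 hr samples of Inhba read 8.89 and 8.99 on array 3 and 8.39 and 9.48 on array 4 and the 5 hr samples 6.57 and 6.59 on array 5 and 8.03 and 7.84 on array 6. Array 5 was the lower of the 5 hr arrays, and 2 of 4 samples at 5 hr were well above background. The difference was -1.68 ± 0.39 (adjusted p = 0.00173) between durations and -1.4 (adjusted p = 0.0242) within slide 2, and without array 5 the former was -1.002. Trib1 read 9.59 to 10.69 at 2 hr and 7.17 to 9.56 at 5 hr, a difference of -1.69 ± 0.48 (adjusted p = 0.00747). It lay -2.65 from the 2 hr mean on array 5 and -0.73 on array 6, and without array 5 its adjusted p was 0.147. Hbegf, a ligand of the EGF receptor, fell by 1.1 (adjusted p = 0.00682) and Crem, a cAMP-responsive regulator, by 1.17 (adjusted p = 0.0135), the latter well above background in 2 of 4 samples at 5 hr. Array 6 alone lay -0.61 from the 2 hr mean for Hbegf and -0.60 for Crem, against -1.58 and -1.74 on array 5. Nptx1, a secreted synaptic pentraxin, rose by 0.91 (adjusted p = 0.029), and its difference within slide 2 was -0.13 (adjusted p = 0.824).

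Rgs2, which shortens signals of Gq-coupled receptors, was high at both durations. It read 13.59 and 13.95 on array 3 and 13.37 and 13.07 on array 4 at 2 hr and 13.11 and 12.97 on array 5 and 14.75 and 14.57 on array 6 at 5 hr. Array 5 lay -0.45 and array 6 1.17 from the 2 hr mean, on opposite sides, and the overall difference was 0.36 ± 0.34 (adjusted p = 0.406). Without array 5 Rgs2 passed, with 1.17 (adjusted p = 0.00187). Its unstimulated mean was 10.22. Arc, which regulates receptor traffic at synapses, overlapped between durations (10.49 to 11.61 at 2 hr and 10.03 to 10.76 at 5 hr) with a difference of -0.59 ± 0.43 (adjusted p = 0.269). Vgf, a secreted neuropeptide precursor, was saturated in all 4 samples at 5 hr and did not pass (adjusted p = 0.295). In the second fit Gem (-0.96), Pim1 (0.89) and Trpm6 (0.54) did not pass either. Pim1, a serine/threonine kinase, read 9.42 and 9.95 on array 5 and 7.07 and 7.08 on array 6 at 5 hr against 7.36 to 7.68 at 2 hr, so that array 5 lay above and array 6 below the 2 hr samples.

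**Figure D2:**
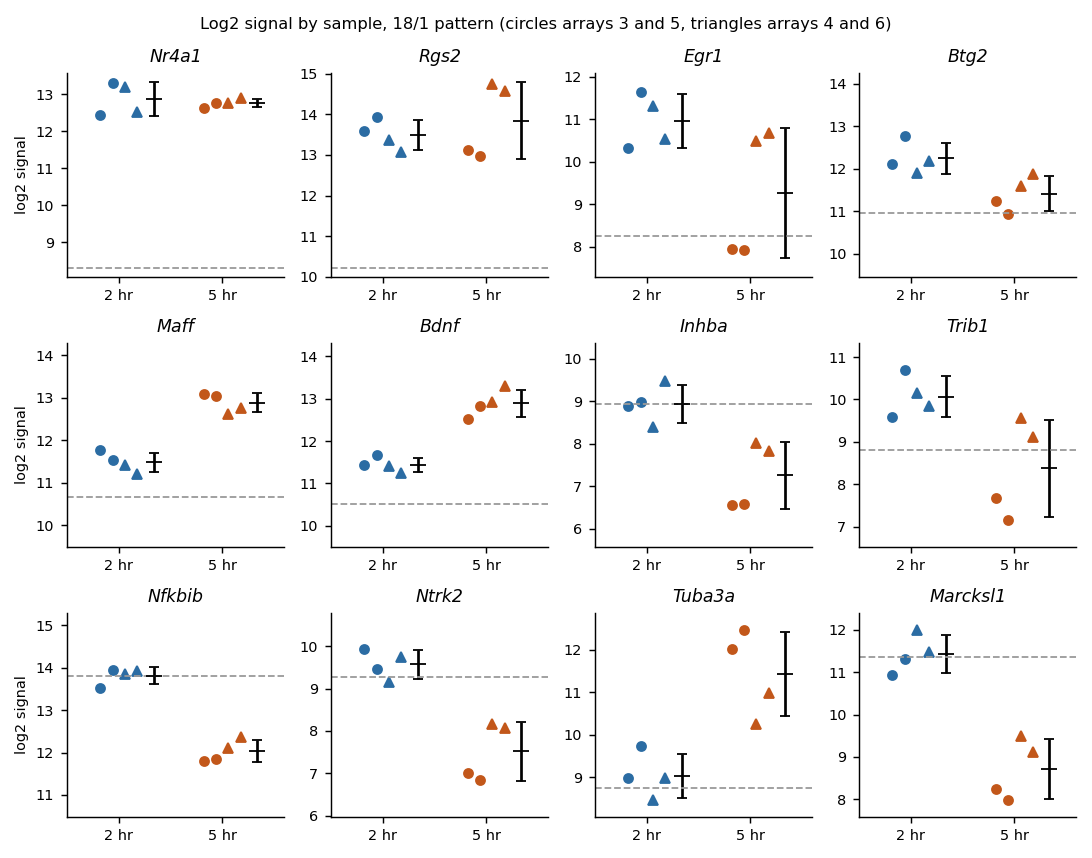
Normalised log2 intensity of 12 genes in each 18/1 2 hr and 18/1 5 hr sample (circles arrays 3 and 5, triangles arrays 4 and 6), with the mean ± SD as a bar and the unstimulated mean as a dashed line. Bdnf and Maff lie higher in all 4 samples at 5 hr, Nr4a1 overlaps, and Egr1 and Rgs2 separate array 5 from array 6.

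Inhibitors that feed back on kinase and cytokine signals were also called about as often as all genes before the GC trend was removed. Of those tested, 3 of 16 rose (18.8%), 5 fell (31.2%) and 8 did not pass the test, with a median log2 difference of -0.47, against 15.3% and 28.7% of all genes. With that trend removed 5 were higher and 5 lower (31.25% each way), against 17.4% and 19.2% of all genes in that fit. Dusp14, a phosphatase of MAP kinases, read 9.62 to 10.41 at 2 hr and 11.22 to 12.12 at 5 hr and rose by 1.5 ± 0.30 (adjusted p = 0.00052). Socs5 and Socs3, which block receptors of the JAK/STAT pathway, rose by 1.27 ± 0.32 (adjusted p = 0.00354) and 0.97 ± 0.34 (adjusted p = 0.0261). Socs3 had 10.10 and 10.40 on array 3 and 10.39 and 10.01 on array 4 at 2 hr and 10.83 and 11.18 on array 5 and 11.40 and 11.37 on array 6 at 5 hr, above an unstimulated mean of 8.86. None of these 3 passed within slide 2, where the differences were 0.62 for Dusp14 (adjusted p = 0.165), 0.44 for Socs5 (0.37) and 0.29 for Socs3 (0.596). Without array 6 the difference of Socs5 was 0.83. The call of Socs3 ended without array 3, 4 or 6, with adjusted p of 0.116, 0.123 and 0.0839. Gadd45b, a stress-induced regulator of MAP kinase signalling, did not differ detectably between durations (0.17 ± 0.25, adjusted p = 0.595) and overlapped.

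IkappaB proteins hold the factor NF-kappaB in the cytoplasm. Their genes Nfkbib, Nfkbie and Nfkbia were lower at 5 hr, while Bcl3, of a nuclear IkappaB protein, was higher. Nfkbib (IkappaB beta) read 13.51 and 13.94 on array 3 and 13.85 and 13.92 on array 4 at 2 hr. At 5 hr it read 11.79 and 11.86 on array 5 and 12.10 and 12.37 on array 6. The 5 hr samples lay below all 2 hr samples on both arrays, by -1.98 on array 5 and -1.57 on array 6, and the difference was -1.78 ± 0.25 (adjusted p = 1.85e-05). Within slide 2 the difference of Nfkbib was -1.18 (adjusted p = 0.00672), and with each sample's trend on probe GC content removed its difference between durations was -0.82 (adjusted p = 0.00351). Nfkbie (IkappaB epsilon) fell by 1.13 ± 0.31 (adjusted p = 0.00621), with -1.71 on array 5 and -0.55 on array 6. The adjusted p of Nfkbie was 0.119 without array 5 and 0.078 without array 4. Nfkbia (IkappaB alpha) fell by 0.83 (adjusted p = 0.0377), and its difference within slide 2 was -0.58 (adjusted p = 0.218). Over the list of NF-kappaB subunits and regulators, 2 of 18 rose (11.11%), 8 fell (44.4%) and 8 did not pass the test, with a median log2 difference of -0.06, against 15.3% and 28.7% of all genes. Once the GC trend was removed 2 of these members were higher (11.11%) and 3 lower (16.7%), against 17.4% and 19.2% of all genes in that fit. The second fit added 9 members, of which 4 were higher and 0 lower, against 13.7% and 22.6% of all genes in that fit. Entry to that fit favours a difference, so these counts support nothing about the list. The subunits Rela (0.55) and Relb (0.04) did not pass. Traf6, an adaptor of interleukin and Toll-like receptors, was well above background in 2 of 4 samples at 5 hr and fell by 1.23 (adjusted p = 0.000257), and Traf3, which restrains the noncanonical pathway, rose by 1.5 (adjusted p = 0.00377) with 1 saturated spot at 5 hr and an adjusted p of 0.0637 without array 3. Bcl3, a nuclear IkappaB protein, rose by 0.98 (adjusted p = 0.0414), and its call ended without array 3 (0.414) or array 6 (0.15). In the second fit Nfkb1, a gene of a DNA-binding subunit, rose by 1.67 (adjusted p = 0.000767), Traf1, an adaptor of TNF receptors, by 2.57 (adjusted p = 0.000269) and Nfkbid, another nuclear IkappaB protein, by 1.17 (adjusted p = 0.00771), beside Bcor. Traf1 lay 3.66 above the 2 hr mean on array 5 and 1.47 on array 6, and Nfkbid 1.72 and 0.62.

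Ntrk2 and Ntrk3 code for TrkB and TrkC, receptors of Bdnf and neurotrophin 3, and both were lower at 5 hr. Ntrk2 read 9.93 and 9.47 on array 3 and 9.14 and 9.75 on array 4 at 2 hr and 7.0004 and 6.83 on array 5 and 8.17 and 8.07 on array 6 at 5 hr, with 2 of 4 samples at 5 hr well above background. It was lower in all 4 samples at 5 hr than in any at 2 hr, with a difference of -2.06 ± 0.36 (adjusted p = 0.000162) between durations and of -1.15 within slide 2 (adjusted p = 0.0384). Ntrk3 differed by -1.48 ± 0.39 (adjusted p = 0.00424) with the brightest of its 3 probes, and 1 of the 3 had the other sign. Its adjusted p was 0.093 without array 4 and 0.0581 without array 5. Over channels, receptors and peptides of nociceptors, the neurons that sense damage, 1 of 19 rose (5.26%), 4 fell (21.1%) and 14 did not pass the test, with a median log2 difference of -0.22, against 15.3% and 28.7% of all genes. With the GC trend removed 2 of these were higher and 2 lower (10.5% each way), against 17.4% and 19.2% of all genes in that fit. The second fit added 8 members, of which 0 were higher and 3 lower, against 13.7% and 22.6% of all genes in that fit. These counts too support nothing about the list, since entry to that fit favours a difference. Asic3, an acid-sensing channel, also fell (-1.03, adjusted p = 0.00907). Cacna1h, a T-type calcium channel, rose by 0.74 (adjusted p = 0.0384), a call that ended without array 3, 4 or 6 (adjusted p of 0.146, 0.129 and 0.112). The nociceptor sodium channels Scn9a (0.25) and Scn11a (0.45) did not pass. Neither did Scn10a (0.50), with 3 saturated spots at 5 hr, nor the peptides Calca and Tac1, saturated in all 4 samples at 5 hr, for which no size is given. Of genes of axon injury and regeneration, 1 of 21 rose (4.76%), 1 fell (4.76%) and 19 did not pass the test, with a median log2 difference of -0.29. With the GC trend removed 4 of them were higher (19.0%) and 1 lower (4.76%), against 17.4% and 19.2% of all genes then. Sox11, a factor of developing neurons, fell by 1.03 (adjusted p = 0.0211), a call that ended without array 3, 4 or 5 (adjusted p of 0.082, 0.122 and 0.112). Its probe was the only one of Sox11 to pass the filter, and a brighter probe marked as non-uniform gave 0.73. Anxa1, a phospholipid-binding protein, rose by 1.69 (adjusted p = 0.00634) with 1 saturated spot at 5 hr and an adjusted p of 0.0614 without array 3, and its other probe had the opposite sign.

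Voltage-gated channels set the firing properties of the neuron. Of those tested, 7 of 33 rose (21.2%), 5 fell (15.2%) and 21 did not pass the test, with a median log2 difference of 0.01, against 15.3% and 28.7% of all genes. The second fit added 14 channels, of which 1 was higher and 6 were lower, against 13.7% and 22.6% of all genes in that fit. Nothing about the list is read from these counts, since entry to that fit favours a difference. Scn8a, the sodium channel of nodes and initial segments, read 10.37 and 11.40 on array 3 and 10.97 and 11.23 on array 4 at 2 hr and 14.73 and 14.74 on array 5 and 13.08 and 14.08 on array 6 at 5 hr. It rose by 3.16 ± 0.36 (adjusted p = 2.57e-06) with 1 saturated spot, but 90/5 2 hr on the same slide read a mean of 13.91 and the difference within slide 2 was 0.25 (adjusted p = 0.668). Kcna4, an A-type potassium channel, rose by 1.74 ± 0.27 (adjusted p = 6.32e-05), and its difference within slide 2 was 0.26 (adjusted p = 0.538). Scn1a, the sodium channel Nav1.1, read 12.34 and 12.54 on array 3 and 12.16 and 12.25 on array 4 at 2 hr and 9.57 and 8.38 on array 5 and 11.77 and 11.39 on array 6 at 5 hr. All 5 hr samples were lower, array 5 by -3.35 and array 6 by -0.74, and the difference of -2.04 ± 0.56 (adjusted p = 0.00578) rested on array 5, since without it the adjusted p was 0.133. Without array 3 it was 0.0583. Kcnd1, another A-type channel, fell by 1.47 ± 0.27 (adjusted p = 0.000253).

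Regulators of the actin skeleton through Rac, its kinase Pak and the WAVE complex had a larger share of members called higher than all genes had. Of those tested, 10 of 33 rose (30.3%), 10 fell (30.3%) and 13 did not pass the test, with a median log2 difference of 0.15, against 15.3% and 28.7% of all genes. The list follows a pathway that was already known to move in these samples and is no independent evidence of it. Kinases of 1 family went apart. Pak3 read 11.69 and 11.36 on array 3 and 12.07 and 11.42 on array 4 at 2 hr and 14.12 and 14.47 on array 5 and 13.43 and 13.60 on array 6 at 5 hr, and rose by 2.27 ± 0.37 (4.82-fold, adjusted p = 0.000102). Pak1 read 13.10 and 13.39 on array 3 and 13.15 and 13.03 on array 4 at 2 hr and 10.57 and 10.45 on array 5 and 11.42 and 11.32 on array 6 at 5 hr, and fell by 2.22 ± 0.38 (4.67-fold, adjusted p = 0.000129). Neither gene overlapped between durations, and both kept their sign within slide 2, with 1.51 (adjusted p = 0.0147) for Pak3 and -1.28 (adjusted p = 0.0301) for Pak1. Pak2 fell by 1.06 (adjusted p = 0.00663), with -1.67 on array 5, -0.45 on array 6 and -0.53 within slide 2 (adjusted p = 0.232), and Pak4, saturated in all 4 samples at 5 hr, was at least 3.32-fold higher (adjusted p = 0.0014). Of the WAVE complex, which starts branched actin, Nckap1 was at least 3.39-fold higher (adjusted p = 0.000322), Cyfip2 at least 3.11-fold higher (adjusted p = 0.00135) and Wasf1 higher by 1.46 (adjusted p = 0.00189). Abi1 of the same complex fell by 1.58 (adjusted p = 0.0109) and Abi2 rose by 1.25 (adjusted p = 0.00657), while its second probe had the opposite sign. The integrin subunits Itgb1 and Itga3, which bind the matrix, fell by 2.01 ± 0.37 (adjusted p = 0.000256) and 1.68 (adjusted p = 0.000302). The GTPase Rhoa (0.24) did not pass, nor did Rac1 and Cdc42, with 3 and 2 saturated spots at 5 hr. Both other Rac GTPases were lower. Rac2 fell by 1.31 ± 0.25 (adjusted p = 0.000396), with -1.48 on array 5 and -1.13 on array 6, and differed by -0.95 within slide 2 (adjusted p = 0.0199). Rac3 fell by 1.62 ± 0.58 (adjusted p = 0.0278), with -1.23 and -2.004, and differed by -0.94 within slide 2 (adjusted p = 0.275).

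Of motors that carry cargo along axons, 10 of 33 rose (30.3%), 2 fell (6.06%) and 21 did not pass the test, with a median log2 difference of 0.17, against 15.3% and 28.7% of all genes. Their probes had a median GC content of 36.7%, below the 41.7% of all probes, and once each sample's trend on probe GC content was removed 2 motors were higher (6.06%) and 4 lower (12.1%), against 17.4% and 19.2% of all genes in that fit. Klc1, a kinesin light chain, read 14.73 and 15.32 on array 3 and 15.35 and 15.27 on array 4 at 2 hr and 13.04 and 13.23 on array 5 and 13.45 and 13.74 on array 6 at 5 hr and fell by 1.81 ± 0.30 (adjusted p = 0.000118), with a difference of -0.98 once the GC trend was removed. Kif21a, a kinesin of axons, fell by 1.33 (adjusted p = 0.0128), and its adjusted p was 0.0874, 0.0766 and 0.0816 without array 3, 4 or 5. Kif13a, which carries endosomes, rose by 1.02 (adjusted p = 0.00993), with an adjusted p of 0.117 without array 3. Dynll2, a dynein light chain, was at least 1.97-fold higher by a probe saturated at 5 hr (adjusted p = 0.0268), which lost its call without array 3 (0.146) or array 4 (0.121), and its second probe had the opposite sign.

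Few structural proteins of the axon were called. Of those tested, 2 of 31 rose (6.45%), 3 fell (9.68%) and 26 did not pass the test, with a median log2 difference of -0.29, against 15.3% and 28.7% of all genes. With the GC trend removed 5 of them were higher (16.1%) and 4 lower (12.9%), against 17.4% and 19.2% of all genes in that fit. Of the members that did not pass, 18 were saturated in all 4 samples at 5 hr, where a rise cannot be read. Tubb4a, a beta-tubulin, read 14.61 and 15.31 on array 3 and 15.10 and 14.76 on array 4 at 2 hr and 12.28 and 12.41 on array 5 and 12.44 and 12.78 on array 6 at 5 hr, and fell by 2.47 ± 0.37 (adjusted p = 4.15e-05) between durations and by 1.96 within slide 2 (adjusted p = 0.00439). Map6, a protein that stabilises microtubules, rose by 1.14 (adjusted p = 0.0123) with 3 saturated spots at 5 hr, and its adjusted p was 0.161 without array 3. Ank2, a membrane adaptor, was at least 2.06-fold higher (adjusted p = 0.0366) with all spots at 5 hr saturated, and passed neither without array 3 (0.227), array 4 (0.0654) nor array 6 (0.0644). Mapre1, which tracks growing microtubule ends, fell by 1.59 (adjusted p = 0.00142), with a difference of -1.01 without array 5, while a brighter probe marked as non-uniform gave 0.25.

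Among proteins of synaptic vesicles and their fusion, 5 of 36 rose (13.9%), 6 fell (16.7%) and 25 did not pass the test, with a median log2 difference of -0.12, against 15.3% and 28.7% of all genes. Nsf, the ATPase that takes apart SNARE complexes, was saturated in all 4 samples at 5 hr and at least 5.85-fold higher (adjusted p = 0.000134). Cplx2, a complexin that clamps the fusion machinery, was also saturated and at least 4.22-fold higher (adjusted p = 0.000705) by the brightest of 4 probes, and with the mean of its probes the call ended (adjusted p = 0.0762). Stx1a, a SNARE protein of the plasma membrane, read 12.02 and 11.96 on array 3 and 12.55 and 11.77 on array 4 at 2 hr and 10.78 and 10.87 on array 5 and 10.001 and 10.04 on array 6 at 5 hr. It fell by 1.65 ± 0.42 (adjusted p = 0.00365), more on array 6 than on array 5. Rab3b, a vesicle GTPase, fell by 0.99 (adjusted p = 0.00336), with an adjusted p of 0.0591 without array 4.

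Genes of the unfolded protein response, which copes with misfolded protein in the endoplasmic reticulum, had shares near the 15.3% and 28.7% of all genes. Of those tested, 4 of 20 rose (20%), 5 fell (25%) and 11 did not pass the test, with a median log2 difference of -0.29. Xbp1, its transcription factor, read 13.01 and 12.65 on array 3 and 13.05 and 12.43 on array 4 at 2 hr and 14.32 and 14.62 on array 5 and 14.06 and 14.01 on array 6 at 5 hr, with 1 saturated spot. It rose by 1.46 ± 0.27 (adjusted p = 0.000277), without overlap, and by 1.16 within slide 2 (adjusted p = 0.0115). Chac1, which degrades glutathione, rose by 1.61 ± 0.40 (adjusted p = 0.00288) with 3 saturated spots, and had an adjusted p of 0.0509 without array 5. The chaperone-related genes Dnajb9 and Manf fell by 1.73 ± 0.46 (adjusted p = 0.00506) and 1.34 ± 0.30 (adjusted p = 0.00131). Dnajb9 was well above background in 2 of 4 samples at 5 hr, and had an adjusted p of 0.0671 without array 4. Ddit3 (CHOP), a factor of prolonged stress, fell by 1.62 (adjusted p = 0.0165), with -2.45 on array 5 and -0.79 on array 6. Among cytosolic heat shock proteins, 3 of 20 rose (15%), 4 fell (20%) and 13 did not pass the test, with a median log2 difference of -0.32. Stip1, which links Hsp70 to Hsp90, read 13.77 to 14.12 at 2 hr and 11.93 to 12.20 at 5 hr and fell by 1.91 ± 0.27 (adjusted p = 2.17e-05), with -1.58 within slide 2 (adjusted p = 0.00256). Hspa1a, the inducible Hsp70, was well above background in 2 of 4 samples at 5 hr and fell by 1.31 (adjusted p = 0.00411), with an adjusted p of 0.0913 without array 4. Hspa4l, a relative that acts on Hsp70, rose by 1.61 (adjusted p = 0.000145) with 2 saturated spots.

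Few genes of energy supply were called, and saturation limited what could be read for them. For the respiratory chain and ATP synthase, 7 of 72 rose (9.72%), 7 fell (9.72%) and 58 did not pass the test, with a median log2 difference of 0.01, against 15.3% and 28.7% of all genes. Of the 58, 45 were saturated in all 4 samples at 5 hr. Ndufa11, a subunit of complex I, read 13.08 to 13.51 at 2 hr and 10.80 to 11.97 at 5 hr and fell by 1.89 ± 0.35 (adjusted p = 0.000291), with a difference of -0.99 once the GC trend was removed. Cox4i1, of complex IV, fell by 1.22 (adjusted p = 0.00119) with 2 saturated spots at each duration. For glycolysis and glucose uptake, 1 of 21 rose (4.76%), 3 fell (14.3%) and 17 did not pass the test, with a median log2 difference of -0.12. Of the 17, 11 were saturated in all samples at 5 hr, and once the GC trend was removed 3 members were higher (14.3%) and 0 lower, where 17.4% and 19.2% of all genes were. The glucose transporter Slc2a1 was saturated at 5 hr and at least 3.47-fold higher (adjusted p = 0.000995). Pfkl, a phosphofructokinase, fell by 1.52 (adjusted p = 0.0028), with an adjusted p of 0.0581 without array 4. Pgam1, a phosphoglycerate mutase, was saturated in all 4 samples at 5 hr and in 2 at 2 hr, so no fold is given, and its call (adjusted p = 0.0294) ended without array 3 (0.122) or array 4 (0.165).

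Of cytosolic ribosomal proteins, whose copies and pseudogenes can share probes, 3 of 73 rose (4.11%), 10 fell (13.7%) and 60 did not pass the test, with a median log2 difference of -0.13, against 15.3% and 28.7% of all genes. Of the 60, 57 were saturated in all 4 samples at 5 hr. Rps18 read 15.39 and 15.02 on array 3 and 15.09 and 15.15 on array 4 at 2 hr and 12.25 and 11.55 on array 5 and 13.02 and 12.91 on array 6 at 5 hr and fell by 2.73 ± 0.37 (adjusted p = 1.49e-05). Rps19 fell by 2.19 ± 0.36 (adjusted p = 0.0001). Rpl36a rose by 1.11 (adjusted p = 0.00847) with 3 saturated spots and adjusted p of 0.0584 and 0.0689 without array 3 or 4. For proteasome subunits, 0 of 28 rose (0%), 8 fell (28.6%) and 20 did not pass the test, with a median log2 difference of -0.13. The share that fell is close to the 28.7% of all genes, 11 of the 20 were saturated in all samples at 5 hr, and with the GC trend removed 3 were higher and 3 lower (10.71% each way), against 17.4% and 19.2% of all genes in that fit. Psmd2 and Psmb7 fell by 1.70 ± 0.30 (adjusted p = 0.000214) and 1.41 ± 0.27 (adjusted p = 0.000428). For sterol synthesis and uptake, 0 of 21 rose (0%), 5 fell (23.8%) and 16 did not pass the test, with a median log2 difference of -0.06, and 1 was higher and 1 lower once the GC trend was removed (4.76% each way). Dhcr7, which makes cholesterol from its last precursor, fell by 1.09 (adjusted p = 0.0413), with adjusted p of 0.135, 0.166 and 0.193 without array 3, 4 or 6. Srebf2, the regulator of the pathway, fell by 1.04 (adjusted p = 0.000839) by a probe well above background in 1 of 4 samples at 5 hr, and a brighter probe marked as non-uniform gave 0.06. With the GC trend removed the difference of Srebf2 was -0.08 (adjusted p = 0.754).

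Of chromatin modifying enzymes, 7 of 34 rose (20.6%), 7 fell (20.6%) and 20 did not pass the test, with a median log2 difference of 0.13, against 15.3% and 28.7% of all genes. Hdac7, a class IIa deacetylase, read 8.90 and 9.73 on array 3 and 9.44 and 9.67 on array 4 at 2 hr and 12.41 and 13.41 on array 5 and 10.82 and 11.73 on array 6 at 5 hr, without overlap, and rose by 2.66 ± 0.47 (adjusted p = 0.000207), with a difference within slide 2 of 0.51 (adjusted p = 0.49). Suv39h2, a histone H3 methyltransferase, was saturated in all 4 samples at 5 hr and at least 8.18-fold higher (adjusted p = 2.98e-05). Kdm2a, a histone demethylase, fell by 2.62 ± 0.45 (adjusted p = 0.000147), with 2 of 4 samples at 5 hr well above background, while a brighter probe marked as non-uniform gave 1.11. Splicing factors and hnRNPs had 4 of 38 members higher (10.5%) and 10 lower (26.3%), shares near those of all genes, with a median of -0.003. Snrpb, a core protein of the spliceosome, read 12.00 to 12.47 at 2 hr and 10.21 to 10.62 at 5 hr and fell by 1.92 ± 0.28 (adjusted p = 3.88e-05), with a difference of -1.1 once the GC trend was removed. Hnrnpab, an RNA-binding protein, fell by 1.46 (adjusted p = 0.000564), and its second probe had the opposite sign. Srsf4, a serine and arginine rich splicing factor, rose by 1.39 (adjusted p = 0.00104), and Prpf8, the core of the spliceosome, by 1.02 (adjusted p = 0.019) with 3 saturated spots and adjusted p of 0.157 and 0.0937 without array 3 or 5. Of interferon response genes, 3 of 11 rose (27.3%), 4 fell (36.4%) and 4 did not pass the test, with a median log2 difference of -0.49, against 15.3% and 28.7% of all genes. Irf1, an interferon-induced factor, rose by 1.41 ± 0.31 (adjusted p = 0.00105) and Gbp3, a guanylate-binding protein, by 1.25 (adjusted p = 0.00736), the latter with adjusted p of 0.055 and 0.0543 without array 3 or 4. Ifit2, an antiviral effector well above background in 3 of 4 samples at 5 hr, fell by 1.45 ± 0.35 (adjusted p = 0.00264). Irf3, a factor of antiviral sensing, fell by 0.76 (adjusted p = 0.0315), a call that ended without array 3 (0.205), array 4 (0.0789) or array 5 (0.0559).

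**Figure D3:**
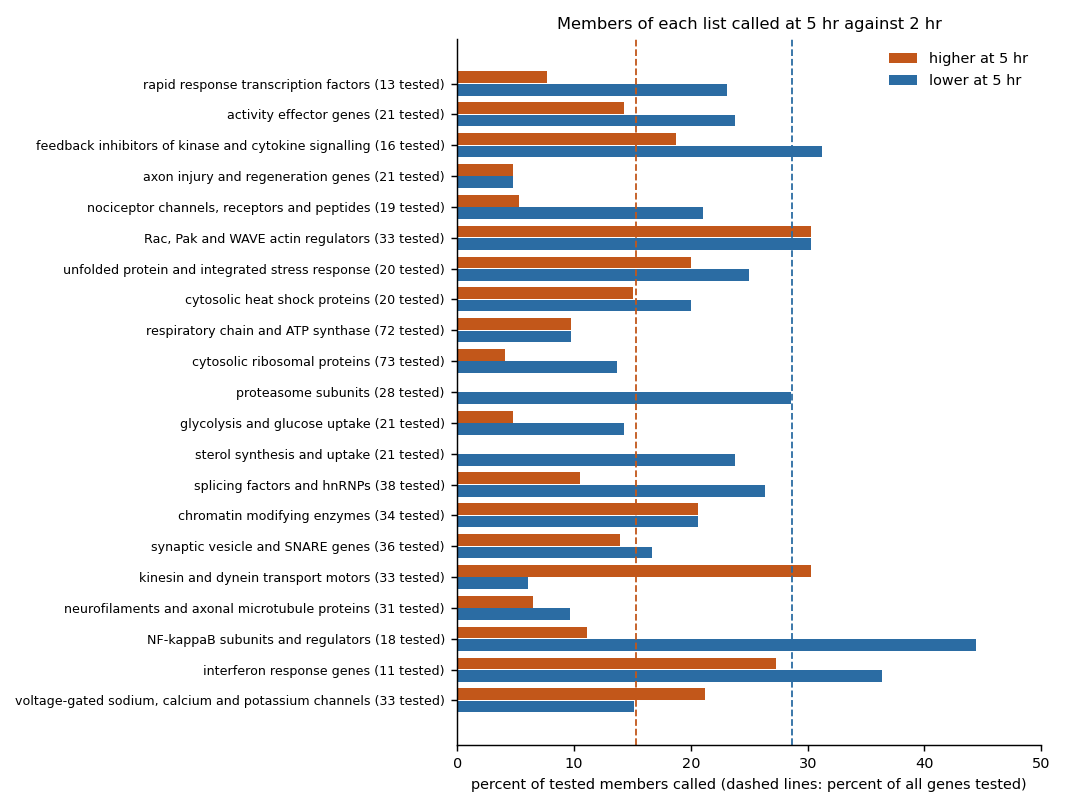
Percent of the tested members of each gene list that were called in each direction between the 2 durations of the 18/1 pattern, with the shares of all 10355 genes (15.3% and 28.7%) as dashed lines. Actin regulators and transport motors lie furthest above the dashed line for higher genes. The interferon, channel, chromatin, unfolded protein and feedback inhibitor lists also lie above it. Most metabolic lists, which hold many saturated probes, lie below both lines.

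Among genes that were called, unsaturated, above background and free of overlap in all 8 samples, and whose probes all had the same sign, the largest rise was that of Gcgr, the glucagon receptor. Its probe on chr11:120400221-120400280 (mm9) read 9.97 and 9.81 on array 3 and 9.36 and 9.87 on array 4 at 2 hr and 13.88 and 14.53 on array 5 and 12.98 and 13.30 on array 6 at 5 hr. All 5 hr samples were higher, by 4.45 on array 5 and 3.39 on array 6, and the difference was 3.92 ± 0.38 (15.1-fold, adjusted p = 5.78e-07), but 1.08 within slide 2 did not pass (adjusted p = 0.0609). Zfp937, a zinc finger protein, rose by 3.24 ± 0.45 (adjusted p = 2.09e-05). Nppa, atrial natriuretic peptide, read 8.83 and 9.47 on array 3 and 8.93 and 8.75 on array 4 at 2 hr and 13.35 and 14.28 on array 5 and 10.22 and 10.50 on array 6 at 5 hr. Array 5 lay 4.82 and array 6 1.37 above the 2 hr mean, and without array 5 the adjusted p of Nppa was 0.126. The other rises among the 10 largest were those of Igdcc3, a cell surface protein (3.04), Pot1a, which caps telomeres (2.90), Rad54l2, a helicase (2.72), Hdac7, Olfr173, an olfactory receptor (2.47), Mtmr1, a lipid phosphatase (2.41) and Gm10778 (2.4). The mean of array 5 was above that of array 6 in each of these 10.

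The largest fall was that of Eri3, an exoribonuclease. It read 11.77 and 12.33 on array 3 and 12.27 and 12.46 on array 4 at 2 hr and 7.62 and 7.44 on array 5 and 9.86 and 9.84 on array 6 at 5 hr and fell by 3.52 ± 0.48 (11.4-fold, adjusted p = 1.52e-05), with a difference of -2.43 within slide 2 (adjusted p = 0.00511). Pfdn5, a subunit of the prefoldin chaperone, read 13.57 to 14.17 at 2 hr and 9.46 to 11.73 at 5 hr, a difference of -3.18 ± 0.45 (adjusted p = 2.59e-05). Spr, sepiapterin reductase, which makes the cofactor of monoamine synthesis, differed by -3.04 ± 0.41 (adjusted p = 1.36e-05). Also among the 10 largest falls were Tubb2a-ps2 (-3.41), Gm13141 (-3.39), Prh1 (-3.21), AA684185 (-3.18), Bmyc (-3.01), Gm16381 (-2.99) and Acsf2, an acyl-CoA synthetase (-2.99). Without array 5 the difference of Acsf2 was -1.87. All 10 were also called lower within slide 2, and in all 10 the mean of array 5 was below that of array 6. Tubb2a-ps2 carries the name of a tubulin pseudogene, and its probe may also capture its parent gene.

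Under the same conditions 685 rises and 1446 falls remained, and 129 and 505 of these were also called with the same sign within slide 2. The comparison of both durations and the comparison within slide 2 share the 5 hr samples, so each value is given side by side and no overlap is tested. Tuba3a, an alpha-tubulin, read 8.99 and 9.72 on array 3 and 8.46 and 8.97 on array 4 at 2 hr and 12.02 and 12.47 on array 5 and 10.26 and 10.99 on array 6 at 5 hr. It rose by 2.4 ± 0.37 between durations (adjusted p = 6.12e-05) and by 2.41 within slide 2 (adjusted p = 0.0016). The same 2 values were 2.47 and 2.11 for Olfr173, 2.38 and 1.99 for Gjc1 (connexin 45), and 2.09 and 1.80 for Ankib1, a ubiquitin ligase. Zfp937 had 3.24 and 1.70. Ptk2b, the calcium-activated kinase Pyk2, had 2.00 and 1.65 by its only probe that passed the filter, while a brighter probe marked as non-uniform gave -0.28 between durations. Among falls, Serpina3n, a protease inhibitor, had -2.61 and -2.28, and Evx2, a homeobox factor of spinal interneurons, -2.39 and -2.17. Hs3st2, a heparan sulphate sulphotransferase of neurons, had -2.73 and -2.04, and Coq9, of ubiquinone synthesis, -2.29 and -2.01. Without array 5 the difference between durations was 1.59 for Tuba3a, 1.21 for Ptk2b, -1.68 for Serpina3n and -1.41 for Coq9. Marcksl1, which binds actin at membranes, read 10.93 and 11.32 on array 3 and 11.99 and 11.48 on array 4 at 2 hr and 8.25 and 7.99 on array 5 and 9.51 and 9.12 on array 6 at 5 hr. The fall of Marcksl1 was 2.71 ± 0.46 between durations (adjusted p = 0.000137) and 1.94 within slide 2 (adjusted p = 0.0124).

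Within slide 2 fewer of the named rises than of the named falls were called again. Over all genes tested, 2.76% were called higher and 10.2% lower there. Of the genes that met the conditions above, 129 of 685 rises and 505 of 1446 falls were also called there. Named here means named by the rule given with the processing. Other genes mentioned in the text are not counted. Of the 50 named genes called higher between durations, 7 were saturated in all 4 samples at 5 hr, 14 of the other 43 were also called higher within slide 2 and 29 were not called. Beside Maff, Dusp14, Socs5, Socs3, Hdac7, Scn8a, Kcna4 and Gcgr these 29 were Alkbh5, Atp8a1, Bcl3, Cacna1h, Chac1, Dnajb6, Gbp3, Gm10778, Igdcc3, Irf1, Kif13a, Map6, Nppa, Pmepa1, Pot1a, Prpf8, Rad54l2, Rpl36a, Srsf4, Tdrd5 and Traf3. Their differences lay from -0.06 for Bcl3, the only one of opposite sign, to 1.46 for Nppa. Of the 59 named genes called lower, 1 was saturated, 39 were also called lower within slide 2 and 19 were not called. These were Cox4i1, Dhcr7, Dnajb9, Egr1, Hnrnpab, Hspa1a, Ifit2, Irf3, Kcnd1, Kif21a, Mapre1, Myc, Ndufa11, Nfkbie, Ntrk3, Rab3b, Scn1a, Stx1a and Traf6, from -0.31 for Irf3 to -1.70 for Egr1 (adjusted p = 0.0572). Some named genes were chosen for their call within slide 2, so these counts are a description.

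Several genes have more than 1 probe, and their probes measure the same transcript or its variants. Over 1564 genes with several probes past the filter, the log2 differences of 2049 pairs of probes correlated with r = 0.09 across pairs, and 56.3% had the same sign. For 18/1 2 hr against unstimulated neurons, within slide 1, the same pairs gave r = 0.52 and 68.8%, and within slide 2, for 18/1 5 hr against 90/5 2 hr, r = 0.14 and 57.1%. In 445 pairs both probes were called between durations, 268 with the same sign and 177 with opposite signs. Over every probe 14.7% were called higher and 30.1% lower. All probes were called higher in 45 genes and lower in 153, and 158 genes had probes called both ways. Sequences of probes are shown for Nfkbib and Rps18, whose probes agree in direction, and for Dnajb6, whose probes do not. They are the first 30 of 60 bases as the array design gives them, 5′ to 3′, with positions on mm9.

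Nfkbib probe at chr7:29544160-29544219, minus strand: aatatgatgacatcgtggttcacagtggca
Nfkbib probe at chr7:29545252-29546647, minus strand: tacaactagaagctgaaaactatgatggcc
Rps18 probe at chr17:34089041-34089202, minus strand: aaattcgagcccatagagggctgcgccact
Rps18 probe at chr17:34092060-34092119, minus strand: tctagtgatctctaagaagttccagcacat
Dnajb6 probe at chr5:30112855-30112911, plus strand: gaccctcaaggaggaatgtattttagtgct
Dnajb6 probe at chr5:30080099-30080158, plus strand: agtccatttgagtttggcttcacattccgg

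The Nfkbib probes fell by 1.78 and 3.45, and the Rps18 probes by 2.73 and 1.55, each in the order printed. A span longer than 60 bases covers an intron. Of Dnajb6, a cochaperone of Hsp70, the first probe printed (35% GC) rose by 2.13 (adjusted p = 2.65e-05). The second (43.3% GC), elsewhere in the gene, differed by -1.25 (adjusted p = 0.0659). Both adjusted p come from a fit of every probe that met the background rule alone. Of the 4 Dnajb6 probes, 2 had a positive and 2 a negative difference. In the fit of probes past the full filter, 1 of the negative ones was called. Hdac1, a class I deacetylase, fell by 2.20 (adjusted p = 4.85e-05) with its probe of 45% GC, well above background in 1 of 4 samples at 5 hr, while a brighter probe marked as non-uniform (35% GC) gave 1.05. The remaining Hdac1 probe, also brighter and also marked, gave -0.96 (adjusted p = 0.0231 in the fit with the background rule alone).

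**Figure D4:**
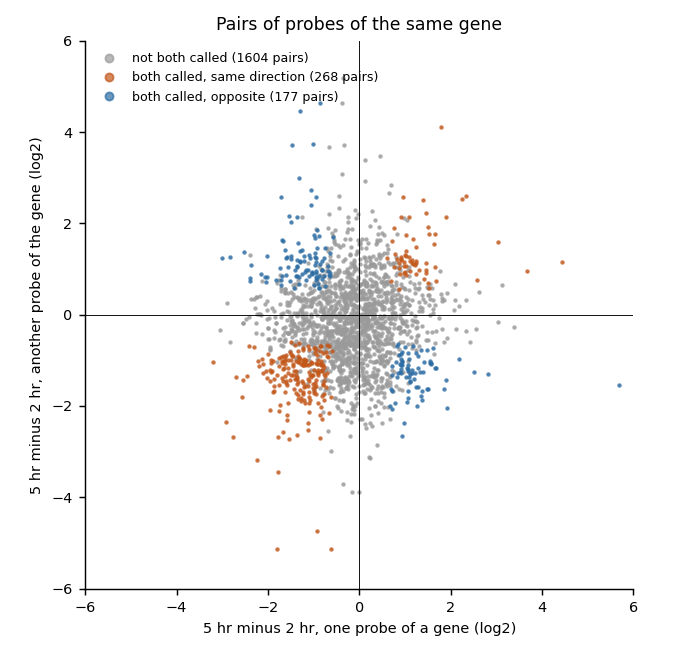
Log2 differences of 18/1 5 hr minus 2 hr for pairs of probes of the same gene, 1 probe on each axis. Pairs with both probes called are marked by equal (268) or opposite (177) sign. The 2049 pairs form a round cloud (r = 0.09).

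Genes whose probes were all called with the same sign were picked out after these values were seen. The rises with the largest difference were those of Atp8a1, a lipid flippase (2.15), Dgcr2, an adhesion receptor (1.79), Alkbh5, which removes methyl groups from RNA (1.64), Gm10324 (1.58), Tdrd5 (1.53) and Pmepa1, an inhibitor of TGF-beta signalling (1.47). The falls were those of Prh1, AA684185, Rps18, Fsd1l (-2.64), Adam11, a membrane protein of neurons (-2.56) and Vps25, a subunit of ESCRT-II (-2.52). Vps25 read 12.30 and 12.34 on array 3 and 12.36 and 12.25 on array 4 at 2 hr and 9.45 and 9.63 on array 5 and 9.98 and 10.10 on array 6 at 5 hr (adjusted p = 2.17e-06), with a difference of -1.18 within slide 2 (adjusted p = 0.012). Without array 5 the difference was 1.4 for Atp8a1 and 1.18 for Dgcr2. Of these 12, the call of Pmepa1 (adjusted p = 0.0116) ended without array 3 (0.0944) or array 4 (0.0658).

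Differences went with the base composition of the probes. Across the 10355 genes the log2 difference between durations correlated with probe GC content at r = -0.42, against -0.36 within slide 2 and -0.05 for 18/1 2 hr against unstimulated neurons. Genes are not independent replicates, and no test is given. Called higher genes had a median probe GC content of 35% and called lower genes one of 45%. Of the 166 genes with probes under 35% GC, 43.4% were called higher and 6.63% lower, with a median difference of 0.61. Of the 889 genes with probes of 55% or more, 3.71% were called higher and 63.4% lower, with a median of -0.98. The values for Bdnf, Maff and Pak3 come from probes of 35% GC, and those for Nfkbib from probes of 55% and 45%. With each sample's GC trend removed, 3787 genes were called and 47.5% of them were higher, so that 17.4% of all genes were higher and 19.2% lower (36.6% either way). The calls of Evx2, Ntrk3, Hspa1a, Cox4i1, Pfkl, Pgam1, Srebf2, Prpf8, Stx1a, Kif13a, Dynll2, Kif21a, Ank2, Bcl3, Traf6, Irf3 and Kcnd1 then ended, and Rgs2 was called, with 0.85 (adjusted p = 0.0325). Gadd45b was then also called, with 0.67 (adjusted p = 0.0325). Some differences became smaller by more than 1.5 times but kept their call, beside those given above for Nfkbib, Ndufa11, Klc1 and Snrpb. Among falls they became -1.76 for Prh1, -1.31 for Ntrk2, -1.24 for Stip1, -1.77 for Rps18, -0.91 for Psmb7, -1.66 for Kdm2a, -1.51 for Tubb4a and -1.60 for Adam11. Among rises they became 1.79 for Rad54l2 and 0.82 for Tdrd5, while that of Socs3 grew to 1.46. Over the lists, 18 of 72 respiratory chain genes were then higher (25%) and 3 lower (4.17%), 16 of 73 ribosomal proteins higher (21.9%) and 6 lower (8.22%), 9 of 33 channels higher (27.3%) and 3 lower (9.09%), and 2 of 11 interferon response genes higher (18.2%) and 1 lower (9.09%). The part of probe composition in the differences was not otherwise tested.

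**Figure D5:**
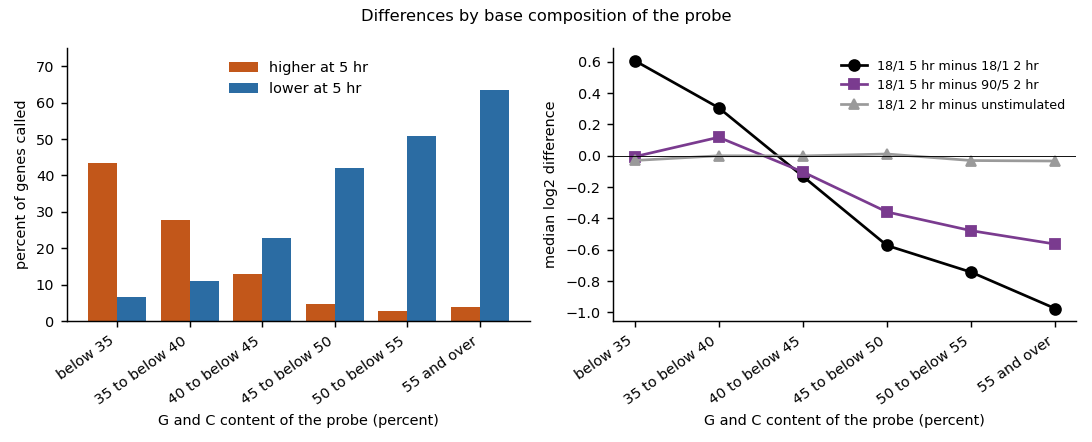
Percent of genes that rose and percent that fell between the durations in bins of probe GC content, and the median log2 difference per bin for 3 comparisons. Called higher genes fall from 43.4% under 35% GC to 3.71% at 55% or more, called lower genes rise from 6.63% to 63.4%, and the median of 18/1 2 hr minus unstimulated stays near 0 in every bin.

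Some spots had no comparable level at 1 duration. Counting a spot as quantified at 5 hr alone when it was at least 2 times background in all samples there and in none at 2 hr, 665 spots of 651 gene names met the rule, against 21 spots in the other direction. The count is of spots, and such a gene can have another probe that was measured at both durations, as Cyld and Oprm1 have. The 5 hr arrays were brighter over their background throughout, and a spot that was dim at 2 hr could pass at 5 hr for that reason, whose part was not tested. Those with the strongest 5 hr signal were H2-Ob, of antigen presentation, Mrgprg, an orphan receptor of the Mas family, Gm6811 and Hif3a, a hypoxia factor. H2-Ob read 14.8 to 147 times background at 5 hr and 1.17 to 1.53 times at 2 hr. Serpinb3c, a protease inhibitor, Asgr2 and Il24, a cytokine, were among the 21 and read no more than 3.67 times background at 2 hr.

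Markers of cell types were read to check the label. Of 14 sensory neuron markers, 13 were well above background in all samples at both durations, with mean log2 levels of 13.97 to 14.40 at 2 hr and 13.95 to 14.25 at 5 hr. The labelled cell type was thus borne out by its markers at both durations, and 1 of the 11 tested was called. Spinal cord markers were above background in all samples for 4 of 14 genes at 2 hr and 7 of 14 at 5 hr, with mean levels of 6.97 to 7.07 and 7.33 to 8.18. Gad1 and Gad2, enzymes of GABA synthesis, Chat, of acetylcholine synthesis, and Slc1a2, a glial glutamate transporter, were above background in none of the samples at 2 hr and in all 4 at 5 hr. Of these, Gad1, Gad2 and Slc1a2 did not pass the spot filter throughout any condition. Slc6a5, Mnx1 and Lhx3 were above background in 0 samples at both durations, and Olig1 and Olig2 in 2 at both. In the second fit 2 of the 7 spinal cord markers tested were called higher and none lower, against 13.7% and 22.6% of all genes in that fit. Entry to that fit favours a difference, so nothing about the markers as a set is read from these counts. Mog, a protein of the myelin of oligodendrocytes, read 8.37 and 8.44 on array 3 and 8.30 and 8.39 on array 4 at 2 hr and 11.04 and 11.21 on array 5 and 9.64 and 9.59 on array 6 at 5 hr and was above background in all of these samples. It rose by 1.99 ± 0.35 (adjusted p = 0.000367) between durations and by 1.47 within slide 2 (adjusted p = 0.0165), and lay 2.75 above the 2 hr mean on array 5 and 1.24 on array 6. Chat, the other, was above background in no sample at 2 hr, so no size is given for its call (adjusted p = 0.0253). At 5 hr Chat read 9.20 and 9.37 on array 5 and 7.05 and 6.95 on array 6. Gfap, of astrocytes, was above background in 4 samples at 2 hr and 2 at 5 hr by the probe tested, and Pax2, a factor of interneurons, in 3 and 2. Another spot of Gfap was among those quantified at 5 hr alone. The probe of Aqp4, a water channel of astrocytes, that was tested gave -0.26 (adjusted p = 0.533), while the brightest one, below the filter, had means of 7.17 at 2 hr and 10.21 at 5 hr. Markers of Schwann cells and satellite glia were above background in 11 of 15 genes at 2 hr and 9 at 5 hr, of fibroblasts in 14 and 12 of 14, and of leukocytes in 11 and 9 of 13. Markers of dividing cells were above background in 7 and 4 of 10, of endothelium in 5 and 4 of 9, and of muscle in 2 of 8 at both. The muscle genes were not the same, with Acta1 and Myh8 at 2 hr and Myod1 and Myog at 5 hr. Cldn5 of endothelium was above background in 0 samples at 2 hr and 4 at 5 hr, and Pecam1 and Cdh5 in 4 and 1. Some markers were called. C1qb of leukocytes (-1.57) and Pecam1 of endothelium (-1.30, above background in 1 sample at 5 hr) were lower. Birc5 of dividing cells was higher (1.28), and its second probe was called lower. In the second fit Kdr of endothelium (-1.95), Acta1 of muscle (-1.58) and Mki67 of dividing cells (-0.60) were lower. Csf1r of leukocytes (0.81) and Ccnb1 of dividing cells (1.27) were higher there. Mean levels of fibroblast markers were 10.697 to 11.29 at 2 hr and 11.15 to 11.53 at 5 hr. In such bulk samples fewer cells of a type and less RNA per cell cannot be told apart, and the part of non-neuronal cells in the differences was not tested.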

How the data were processed

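Total RNA was read on 10 two-colour Agilent arrays on 3 slides, with 4 samples on 2 arrays in each of 5 conditions. The authors deposited linear spot and background intensities as extracted with Agilent Feature Extraction (10.7.1.1 for slide 1, 10.7.3.1 for slides 2 and 3), not normalised, and spot marks (saturation, non-uniformity, signal well above background). Another 70 value columns per array were not used. Intensities were processed with limma 3.58.1 under R 4.3.3 (normexp with an offset of 50, loess within arrays with control spots at weight 0, Aquantile between arrays). Spots had to reach 2 times their background and be free of non-uniformity marks in all 20 samples, which left 13523 of 43020. Spots of a probe were averaged, and the brightest probe stood for each of the 10355 gene names. A second fit kept spots that passed this filter throughout 1 condition or more. The model held condition means, a colour term and the array as a random block (correlation 0.53), with empirical Bayes moderation and Benjamini-Hochberg adjustment at 0.05. The fit was tested on simulated data. Plots were made with matplotlib 3.10.9 (Python 3.11.15). The later of the 2 deposited annotations was used, and 8333 of 44397 spots differ in name between them. Of the names tested, 8008 are symbols of the RefSeq gene table. The number of arrays limits the precision.

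Named genes were the 10 largest rises and 10 largest falls that were unsaturated, above background, not overlapping and of 1 sign over probes, the 6 rises and 6 falls also called within slide 2, up to 2 rises and 2 falls per list, and 22 genes of firing, or, chosen after their values were seen, genes with all probes called. Other list members are named to complete a family, and a few genes are not reported here. The comparison, gene lists and rules were chosen with earlier results of these data known. The alternatives were other background, normalisation, filter, probe, colour, block, weight and GC settings, the methods' t-test (the form of its fold limit assumed), the 8 samples alone, and leaving out each sample and array.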

Additional observations from a re-analysis of the deposited data

Results flagged for a closer look

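In groups of 4 samples, a sample is far from the rest when its gap to the nearest other sample passes Dixon's critical value for 4 samples, as a share of the range of the group, which chance gives in about 1 of 20 groups. Of 250 groups, 5 held such a sample, 4 of them at 2 hr. At 2 hr the Cy5 sample of array 3 read 8.78 for Rab3b, against 9.15 to 9.20 in the other samples, and the Cy3 sample of array 3 read 14.73 for Klc1, against 15.27 to 15.35. That sample also read 12.26 for Adam11, against 12.83 to 12.94. The Cy3 sample of array 4 read 14.58 for Map6, against 13.52 to 13.66. At 5 hr the Cy5 sample of array 5 read 9.43 for Gbp3, against 10.32 to 10.46.

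The duration difference of the 18/1 pattern was set against that of the 90/5 pattern with an interaction term in limma. The values below are the log2 difference of 5 hr minus 2 hr in the 18/1 pattern minus the same in the 90/5 pattern, each with an adjusted p under 0.05. Over all genes 44.8% passed, 16.6% with a positive and 28.2% with a negative value. The 4 conditions lie on slides 2, 1, 3 and 2, so that slide and condition cannot be told apart, and 104 of 125 named genes passed. Most named genes were chosen for their 18/1 difference, which is part of this value, so their share and signs are not read against those of all genes. The probes of Nckap1, Slc2a1, Pgam1, Suv39h2, Nsf, Cplx2 and Dynll2 were saturated in all 4 samples of 18/1 5 hr, and that of Junb was well above background in none, so the values printed for them are fitted values and not sizes.

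Among growth factors and other effectors of firing the value was 1.20 for Bdnf and -1.64 for Inhba. Among transcription factors it was 2.23 for Maff, 1.44 for Egr4, -1.63 for Myc, -2.18 for Egr1 and -2.17 for Junb. Feedback inhibitors gave 1.59 for Dusp14, 2.34 for Socs5, -2.49 for Nfkbib and -2.03 for Nfkbie. Positive values mean that 5 hr minus 2 hr was larger in the 18/1 pattern, as for Bdnf, whose difference was 1.45 in that pattern.

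The axonal and nociceptor lists gave 2.51 for Anxa1, 1.47 for Cacna1h, -2.71 for Ntrk2 and -2.10 for Ntrk3. Channels gave 6.26 for Scn8a, 3.51 for Kcna4, -2.81 for Scn1a and -2.35 for Kcnd1. Actin regulators gave 3.11 for Pak3, 1.82 for Nckap1, -2.97 for Pak1 and -2.27 for Itgb1. Motors and axonal proteins gave 1.76 for Kif13a, 2.06 for Dynll2, -2.50 for Klc1, -2.07 for Kif21a, 1.41 for Map6, -3.10 for Tubb4a and -2.04 for Mapre1. Synaptic genes gave 3.06 for Nsf, 3.16 for Cplx2, -2.41 for Stx1a and -1.42 for Rab3b.

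Stress and heat shock genes gave 1.52 for Chac1, 1.69 for Xbp1, -2.61 for Dnajb9, -1.46 for Manf, 3.16 for Dnajb6, 2.16 for Hspa4l, -2.36 for Stip1 and -2.14 for Hspa1a. Metabolic genes gave -2.93 for Ndufa11, -1.94 for Cox4i1, 2.45 for Slc2a1, -1.89 for Pfkl, -1.08 for Pgam1 and -1.62 for Srebf2. Ribosomal and proteasome genes gave 1.69 for Rpl36a, -4.19 for Rps18, -2.50 for Rps19, -2.69 for Psmd2 and -1.82 for Psmb7. Splicing and chromatin genes gave 1.81 for Srsf4, -2.87 for Snrpb, -2.46 for Hnrnpab, 6.52 for Suv39h2, 4.72 for Hdac7, -4.08 for Kdm2a and -3.29 for Hdac1. NF-kappaB and interferon genes gave 1.95 for Traf3, 1.81 for Bcl3, -1.97 for Traf6, 1.69 for Irf1, 1.99 for Gbp3, -1.66 for Ifit2 and -1.32 for Irf3.

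The largest rises between durations gave 6.73 for Gcgr, 5.13 for Zfp937, 4.21 for Nppa, 5.88 for Igdcc3, 6.16 for Pot1a, 4.04 for Rad54l2, 4.06 for Olfr173, 3.09 for Mtmr1 and 4.69 for Gm10778. The largest falls gave -4.74 for Eri3, -4.72 for Tubb2a-ps2, -4.83 for Gm13141, -4.70 for Prh1, -4.33 for Pfdn5, -4.41 for AA684185, -4.54 for Spr, -4.70 for Bmyc, -4.23 for Gm16381 and -4.00 for Acsf2. Genes also called within slide 2 gave 3.38 for Tuba3a, 3.11 for Gjc1, 2.50 for Ankib1, 2.04 for Ptk2b, -2.48 for Serpina3n, -3.05 for Evx2, -3.89 for Hs3st2, -2.53 for Coq9 and -3.09 for Marcksl1. Genes with all probes called one way gave 4.48 for Atp8a1, 2.08 for Dgcr2, 1.91 for Alkbh5, 2.62 for Gm10324, 2.41 for Tdrd5, 2.10 for Pmepa1, -4.20 for Fsd1l, -4.29 for Adam11 and -4.13 for Vps25.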

How the results depend on the processing

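Over 31 other settings, no count of called genes fell below 2569 of the main 4556, and between 77 and 109 of the 109 called genes named by the rule stayed called. With each sample centred on its median alone 9.20% of called genes were higher, against 34.8%, since the median over all genes was then -0.80, with 348 list members called against 188 and 4855 genes called within slide 2 against 1339. Ank2 (-0.15) then turned. Without a filter 7684 genes were called, 51.1% of them higher, and 8100 had a duration difference that differed between patterns, against 4636, and with the filter within a condition 7197 did. With these 2 settings, and with the background rule alone, other probes stood for Ptk2b (-0.28), Sox11 (0.73), Srebf2 (0.0624), Kdm2a (1.11), Hdac1 (1.05, also with the filter on the 8 samples of the 18/1 pattern) and Mapre1 (0.25), with turned signs. Without saturated probes 124 list members were called. With the GC trend removed 47.5% of called genes were higher. The mean of the probes of a gene, chosen after seeing the data, ended the calls of Anxa1, Ntrk3, Dnajb6, Hnrnpab, Cplx2 and Dynll2. Leaving out samples or arrays gave 2569 to 5678 genes called (2619 without array 3, 2569 without array 4), of which 31.3% to 38.6% were higher, 87 to 242 list members, 439 to 3563 genes within slide 2 (439 without array 5, 3563 without array 6, 681 and 688 without arrays 3 and 4) and 3461 to 5773 between patterns. The methods' t-test with a minimum fold change of 1.4 and a limit from the coefficient of variability called 4933 genes and 98 of the 109, and after Benjamini-Hochberg adjustment 3693 genes and 77 of the 109. Egr1, Hdac7, Chac1 and Tuba3a were among the genes lost in both. The causes of these changes were not tested. No paired analysis was possible because the colours of the 18/1 5 hr arrays cannot be tied to replicate numbers. Saturated spots at 5 hr, in 738 of the called genes, limit how large a rise could be read, and spots near background limit the falls.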
